A study of Mus musculus with 6 samples.

Results

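The complement system is represented here by 32 genes that encode its classical, alternative, lectin and terminal components, their receptors and their regulators. The genes were picked by name from the 55291 gene symbols of the count table, without use of their measured values in the choice rule. The 32 genes were C1qa, C1qb, C1qc, C1ra, C1rl, C1s1, C2, C4b, C3, Cfb, Cfd, Cfp, Masp1, Masp2, Fcna, Fcnb, Colec12, C3ar1, C5ar1, C5ar2, Vsig4, Serping1, Clu, Vtn, Cfi, Cr1l, Cd46, Cd55, Cd59a, Hc, C6 and C7.

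The study compared subcutaneous tumours of the mouse glioma line CT2A from Siglece knockout (KO) hosts and wild-type (WT) hosts, with 3 bulk RNA-seq libraries in each group. Siglece encodes a sialic acid-binding inhibitory receptor of myeloid cells, and the study's title concerns its human counterpart on macrophages in glioblastoma. RNA was copied to cDNA by Smart-seq2, which covers whole transcripts and keeps no strand information, from a small number of cells that the labels call CT2A cells. Both groups carried the same tumour line, and no treatment is named for either; the sources used here give neither the strain and age of the mice nor the way the knockout was made. The labels name brain as the source and a subcutaneous tumour as the tissue, and they leave it unsaid whether each library is a separate animal. A p-value here is thus set against library-to-library spread, which may be partly technical. Replicate numbers only name a library, and values are listed throughout in the order of replicates 1, 2 and 3 of each group.

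Complement is a cascade of plasma and tissue proteins that tags cells and debris for uptake and draws in leukocytes. In the classical pathway C1q binds a target and activates the proteases C1r and C1s, which cleave C4 and C2. The lectin pathway enters through sugar-binding collectins and ficolins with the MASP proteases, and the alternative pathway amplifies deposited C3 through factors B and D with properdin. The pathways meet at C3 and C5, whose small fragments act on the receptors of myeloid cells, while the later components build a pore in the target membrane. The liver makes most circulating components, but C1q and properdin come largely from macrophages and other myeloid cells, and fibroblasts are a source of C1r, C1s, C3 and C1 inhibitor.

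The C1q genes had the highest levels among the 32, and the start regions of C1qb and C1qc are shown. The sources used here held no start region for C1qa. The 3 genes lie on the minus strand of chromosome 4 of mm10, C1qb at chr4:136880129-136886187, C1qc at chr4:136889804-136893065 and C1qa at chr4:136895917-136898803. Gaps of 3616 bases between C1qb and C1qc and of 2851 bases between C1qc and C1qa held no other gene of the table. The windows run from 250 bases before to 50 bases after the RefSeq start on GRCm38.p6 and read 5′ to 3′ along the gene. Capitals mark matches to GAGGAA (or TTCCTC on the other strand), a PU.1-type word, and to TGCTGA, a Maf-type word.
C1qb, chr4:136886151-136886450, minus strand: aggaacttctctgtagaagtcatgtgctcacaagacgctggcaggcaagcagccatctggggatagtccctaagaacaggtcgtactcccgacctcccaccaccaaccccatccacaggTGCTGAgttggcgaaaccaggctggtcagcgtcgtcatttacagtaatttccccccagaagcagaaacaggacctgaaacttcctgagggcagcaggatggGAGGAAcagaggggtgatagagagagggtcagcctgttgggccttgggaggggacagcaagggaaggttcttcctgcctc
C1qc, chr4:136892865-136893164, minus strand: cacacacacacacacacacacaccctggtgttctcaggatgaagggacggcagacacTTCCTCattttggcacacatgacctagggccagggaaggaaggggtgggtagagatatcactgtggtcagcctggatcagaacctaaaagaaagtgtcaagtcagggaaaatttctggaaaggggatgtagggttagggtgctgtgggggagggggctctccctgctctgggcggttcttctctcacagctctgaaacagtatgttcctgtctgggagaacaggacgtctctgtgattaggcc
The C1qb window held the PU.1-type word at position -30 and the Maf-type word at position -131 from the start. The C1qc window held the PU.1-type word on the opposite strand at position -193. Searched on both strands, with overlaps to other words allowed, GAGGAA was present in 28.3% of 32851 windows of this length and TGCTGA in 19.5%. Of the 32 genes 23 had a RefSeq window, some of them more than 1, and of the 25 windows searched the PU.1-type word stood in 8 and the Maf-type word in 10. An interferon-type word, GAAA repeated after a gap of 2 bases, stood in 3, those of Cd46, Cd59a and Vtn, against 3.44% of all windows.

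Levels are given as CPM per kb, the count scaled to the TMM-adjusted library total (CPM) and divided by the kilobases of merged exon, so that genes can be set beside each other. Library totals ran from 24369359 to 40574093 counts. Siglece had 0, 8 and 0 counts in KO libraries, against 74, 99 and 64 in WT libraries, so that KO replicate 2 held a few counts of the targeted gene. The libraries held markers of many cell types beside the tumour line. Of 14 macrophage markers 11 were higher in KO, of 12 fibroblast markers 11, and of 10 markers of the glioma line 0 were higher and 3 lower. By the edgeR test used for these calls (adjusted p below 0.05), 11.2% of all genes tested were higher and 0.226% lower. Of 6 skeletal muscle markers 5 were higher, with summed levels of 419.7, 132 and 900.4 CPM per kb in KO against 98.5, 44.8 and 43.0 in WT, and of 6 T cell markers 5. The part of these cell types in the complement values was not tested. KO replicate 2 stood apart from the other KO libraries: the glioma markers lay 3.19, 0.91 and 3.51 log2 units below the WT mean in KO libraries, averaged over the list. Of 8 hepatocyte markers Ttr, Fga, Fgb, Serpina1a and Ahsg had 0 counts in every library and Alb no more than 0.106 CPM per kb, while Apoa2 had 1.96, 2.33 and 1.02 CPM per kb in KO and 3.71, 1.27 and 0.665 in WT.

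Among the complement genes higher in KO tumours were C1qb and C1qc, C3, C1s1, Serping1 and the anaphylatoxin receptors, each with a several-fold higher mean level in KO. Of the 32 genes, 29 passed the filter on low counts and 14 were higher in KO at an adjusted p below 0.05 in the quasi-likelihood test of edgeR, while 0 were lower. Over all 18621 genes tested, 11.2% were called higher and 0.226% lower. The 14 genes were C1qb, C1qc, C1ra, C1s1, C3, Cfp, Colec12, C3ar1, C5ar1, C5ar2, Serping1, Vtn, Cd55 and C6. All KO libraries lay above all WT libraries for 15 of the 29, against 24.6% of all genes tested, and below them for 0, against 19.5%. The median log2 fold change of the 29 was 2.28 and that of all genes tested -0.05. Of the 29, 25 reached the filter's cut of 0.324 CPM in every WT library and 4 (Fcna, Vtn, C6 and C7) passed through KO libraries. With 1 library left out, edgeR called 17 of the genes higher without KO replicate 2, against 22.7% of all genes tested, and 8 without KO replicate 3, against 4.85%. Leaving out KO replicate 1 gave 0 (0% of all genes), as did leaving out any of the WT replicates. In these 4 fits, in the order KO replicate 1 and WT replicates 1, 2 and 3, 18, 17, 16 and 16 complement genes had an unadjusted p below 0.05, against 17.9%, 25%, 22% and 21.8% of all genes, and DESeq2 called 16, 17, 15 and 14 higher, against 9.78%, 14.4%, 11.5% and 11.9%. In bulk tumour RNA, more cells of a type and more RNA per cell cannot be told apart, and this holds for every comparison here.

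**Figure D1:**
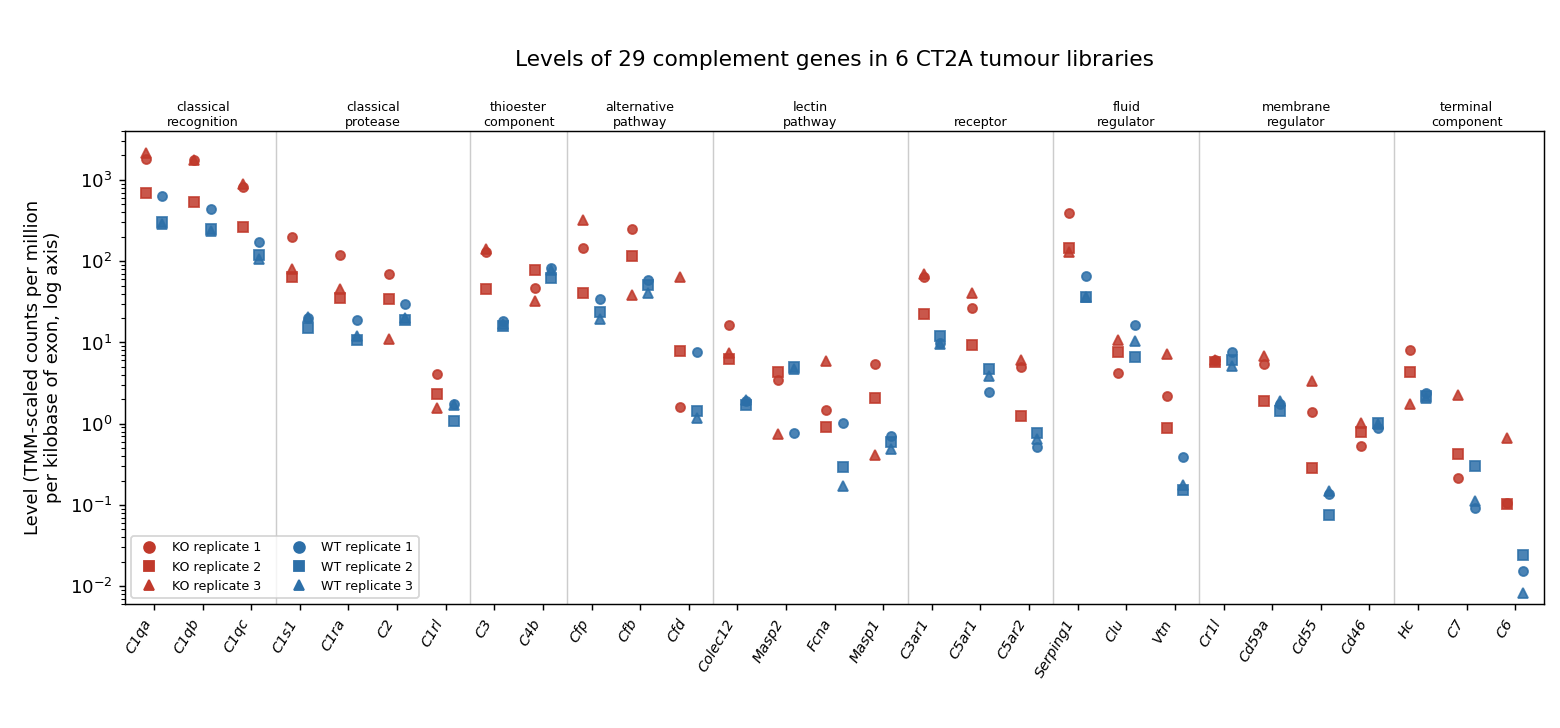
Level of each of the 29 complement genes that passed the low-count filter, in CPM per kb of exon on a log axis, grouped by role; each point is 1 library, KO in red to the left and WT in blue to the right, with the symbol giving the replicate. The KO points of the C1q genes, C3, C1s1 and C3ar1 sit above all WT points, while those of C4b, Clu, Cr1l and Cd46 are mixed with them.

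C1q is the recognition molecule of the classical pathway and is built from the products of C1qa, C1qb and C1qc in equal parts. C1qa had 1803, 690.1 and 2157 CPM per kb in KO libraries, against 627, 308 and 290.4 in WT libraries. C1qb had 1740.3, 534 and 1757 CPM per kb in KO, against 434, 249 and 233 in WT. C1qc had 819.8, 264 and 899 CPM per kb in KO, against 175, 118 and 107 in WT. Every KO library lay above every WT library for all 3 genes, with KO replicate 2 the lowest of its group and WT replicate 1 the highest of its own. The log2 fold change was 2.14 ± 0.55 (SE) for C1qb at an adjusted p of 0.0452 and 2.31 ± 0.53 for C1qc at 0.0333, while C1qa, at 1.92 ± 0.55 with a 95% interval of 0.65 to 3.20, missed the threshold at 0.0614 (edgeR). C1qa passed without KO replicate 2, at an adjusted p of 0.00746, with DESeq2 at 0.00451, without the low-count filter at 0.0198 and without composition scaling at 0.0492, and it missed the threshold in the other settings. C1qb missed it with RLE size factors at 0.0513, with limma-voom at 0.0527 and without KO replicate 3 at 0.107. Like every gene, C1qb also missed it without KO replicate 1 or any of the WT replicates.

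The proportions of the 3 C1q transcripts overlapped between KO and WT. The C1qc level was 0.471, 0.494 and 0.512 of the C1qb level in KO libraries, against 0.403, 0.477 and 0.459 in WT libraries. The C1qa level was 1.04, 1.29 and 1.23 times the C1qb level in KO, against 1.45, 1.24 and 1.25 times in WT. Together the C1q genes took 0.512%, 0.197% and 0.485% of all counts in KO libraries, against 0.132%, 0.0926% and 0.0863% in WT libraries. Their share of the summed level of the 32 genes was 75.5% ± 6.16 in KO and 71.8% ± 4.03 in WT (SD, n = 3 each), and these shares overlapped.

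The classical pathway proteases divided into C1ra and C1s1, which rose, and C1rl and C2, which did not pass the test. C1r activates C1s within the C1 complex, and C1s then cleaves C4 and C2. C1s1 had 201, 63.3 and 81.0 CPM per kb in KO libraries, against 20.1, 15.3 and 20.8 in WT libraries. C1ra had 118, 35.0 and 45.5 CPM per kb in KO, against 18.9, 10.7 and 11.9 in WT. Both genes were highest in KO replicate 1, and all KO libraries exceeded all WT libraries. Their log2 fold changes were 2.62 ± 0.49 at an adjusted p of 0.0246 for C1s1, which equals the smallest adjusted p of any gene, and 2.26 ± 0.51 at 0.0325 for C1ra (edgeR). C1rl, a C1r-like protease gene on chr6:124493113-124510643, had 4.14, 2.33 and 1.54 CPM per kb in KO, against 1.76, 1.07 and 1.70 in WT, a log2 difference of 0.82 with a 95% interval of -0.27 to 1.91. It lies 1761 bases from C1ra (chr6:124512405-124523443), which lies 6901 bases from C1s1 (chr6:124530345-124542359). C1ra and C1s1 have close copies, C1rb and C1s2, so the assignment of their reads is uncertain, and C1s1 shares 576 exon bases with Gm16567 on the opposite strand.

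C2 and Cfb are paralogous neighbours on chromosome 17, 85 bases apart, whose products form the protease part of the classical and alternative C3 convertases. Cfb, at chr17:34856374-34862518, had 249, 115 and 38.0 CPM per kb in KO libraries, against 58.5, 50.4 and 41.2 in WT libraries. C2, at chr17:34862604-34898265, had 69.6, 34.7 and 11.1 CPM per kb in KO, against 29.8, 19.0 and 20.0 in WT. KO replicates 1 and 2 were above all WT libraries for both genes, and KO replicate 3 was below all of them. Neither passed the test, at log2 fold changes of 1.42 ± 0.61 for Cfb (adjusted p = 0.155) and 0.75 ± 0.59 for C2 (adjusted p = 0.389, edgeR). The ratio of C2 to Cfb levels was 0.280, 0.302 and 0.293 in KO, against 0.510, 0.377 and 0.486 in WT, a description whose choice followed a look at the values. Gm20547, a predicted gene on the same strand, shares 2246 exon bases with Cfb and 1656 with C2, so reads in these stretches cannot be assigned to 1 gene.

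C3 rose and C4b did not, although both encode the thioester proteins that attach to target surfaces. C3, at chr17:57203970-57228136, had 129, 45.1 and 142 CPM per kb in KO libraries, against 18.5, 15.8 and 16.9 in WT libraries. The lowest KO library was 2.44 times the highest WT library, and the log2 fold change was 2.63 ± 0.47 with a 95% interval of 1.54 to 3.71 (adjusted p = 0.0246, edgeR). C4b, at chr17:34728380-34743882, had 47.0, 77.1 and 32.3 CPM per kb in KO, against 83.0, 62.8 and 78.8 in WT. KO replicates 1 and 3 were below all WT libraries while KO replicate 2 lay among them, and the log2 fold change of -0.52 had an interval of -1.42 to 0.37 (adjusted p = 0.362). Without KO replicate 2 the C4b value was -0.93 at an adjusted p of 0.0502. In WT tumours C4b had the highest level of the 32 genes after the C1q chains and averaged 74.8 ± 10.7 CPM per kb where C3 averaged 17.1 ± 1.34, whereas in KO tumours C4b averaged 52.1 ± 22.9 and C3 105 ± 52.5 (SD, n = 3 each). Reads of C4b and its near-identical copy C4a may have been split or dropped in counting.

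Of the alternative pathway genes, Cfp rose and Cfb and Cfd did not pass the test. Cfp encodes properdin, which stabilises the alternative C3 convertase. It had 147, 40.8 and 324 CPM per kb in KO libraries, against 33.8, 23.7 and 19.7 in WT libraries, a log2 fold change of 2.73 ± 0.69 (adjusted p = 0.0432, edgeR). Cfp missed the threshold with limma-voom (adjusted p = 0.0640) and in edgeR without KO replicate 3 (adjusted p = 0.0923). The same held, as for every gene, without KO replicate 1 or any of the WT replicates. Neutrophils also make properdin, and their 10 markers had summed levels of 44.8, 16.4 and 223 CPM per kb in KO against 5.48, 5.31 and 4.62 in WT. Of the 4 tested markers 2 were higher, against 11.2% of all genes tested, and Ly6g had 0 counts in every KO library. Csf3r made up most of the sum in KO replicates 1 and 2, at 40.5 and 11.1 CPM per kb. S100a8 had 0.343, 1.40 and 52.0 CPM per kb in KO, against 1.30, 0.534 and 0.472 in WT. The part of neutrophils in the Cfp values was not tested. Cfd encodes factor D, also called adipsin, the protease that cleaves factor B and a well known product of fat cells. It had 1.59, 7.94 and 63.5 CPM per kb in KO, against 7.59, 1.42 and 1.16 in WT. KO replicate 3 was far above the rest, KO replicate 1 was within the WT range, and the log2 fold change of 2.84 had a 95% interval of -0.18 to 5.86. Without KO replicate 3 the Cfd value was 0.45 (adjusted p = 0.791).

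Fat cell markers were also highest in KO replicate 3. The summed level of 8 adipocyte markers was 32.9, 14.8 and 217 CPM per kb in KO libraries, against 9.21, 5.43 and 4.54 in WT libraries. Fabp4 had the largest part of these sums, with 21.7, 8.62 and 180 CPM per kb in KO and 4.97, 2.42 and 1.97 in WT. Adipoq, which encodes the fat cell hormone adiponectin, had 0.197, 0.928 and 9.68 CPM per kb in KO, against 0.277, 0.351 and 0.194 in WT. Of the 8 markers 3 (Fabp4, Pparg and Lipe) were higher in KO in the edgeR test, against 11.2% of all genes tested. Adipoq in KO replicate 1 was within the WT range. All 8 markers were highest in KO replicate 3 among the KO libraries. The part of fat tissue in the Cfd values was not tested.

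The genes grouped under the lectin pathway were at low levels. Of the 4 that were tested 1, the scavenger receptor gene Colec12, was called, while Masp1, Masp2 and Fcna did not pass the test. Colec12, on chromosome 18, encodes a scavenger receptor of the collectin family that is known from endothelial and stromal cells. It had 16.6, 6.19 and 7.52 CPM per kb in KO libraries, against 1.93, 1.71 and 1.96 in WT libraries. The lowest KO library was 3.15 times the highest WT library, and the log2 fold change was 2.43 ± 0.41 (adjusted p = 0.0246, edgeR). Endothelial markers were higher as well, 7 of 8, against 11.2% of all genes tested. Their summed levels were 109, 66.9 and 248 CPM per kb in KO against 16.04, 19.5 and 15.4 in WT, and their part in the Colec12 values was not tested. Masp1, whose product activates the pathway, had 5.47, 2.07 and 0.416 CPM per kb in KO, against 0.700, 0.591 and 0.484 in WT. KO replicate 3 was below every WT library for Masp1, and the log2 fold change of 2.16 (adjusted p = 0.111) became 2.64 (adjusted p = 0.0454) without it. Masp2, the protease that cleaves C4 and C2, had 3.40, 4.31 and 0.754 CPM per kb in KO, against 0.760, 5.01 and 4.68 in WT, and the groups overlapped. Masp2 shares 1817 exon bases with Tardbp on the opposite strand, whose counts were 5177, 9522 and 3578 in KO and 12648, 11137 and 10038 in WT, so its reads cannot be told apart from those of Tardbp there. Fcna, a ficolin of mouse macrophages, had 1.49, 0.912 and 5.88 CPM per kb in KO, against 1.01, 0.290 and 0.173 in WT, and did not pass the test (adjusted p = 0.126). Fcnb, a ficolin of neutrophils and their precursors, had 0 counts in all 6 libraries, which allows levels of up to 0.0612 to 0.112 CPM per kb depending on the library.

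All 3 anaphylatoxin receptor genes rose in KO tumours. C3ar1 encodes the receptor for C3a, C5ar1 that for C5a, and C5ar2 a second C5a receptor that does not signal through G proteins. C3ar1 had 63.6, 22.3 and 70.0 CPM per kb in KO libraries, against 9.93, 12.2 and 9.68 in WT libraries. C5ar1 had 26.7, 9.27 and 41.1 CPM per kb in KO, against 2.47, 4.71 and 3.88 in WT. C5ar2 had 5.04, 1.23 and 6.05 CPM per kb in KO, against 0.522, 0.760 and 0.643 in WT. In each case KO replicate 2 was the lowest of its group and still exceeded every WT library. The log2 fold changes were 2.29 ± 0.45 for C3ar1 (adjusted p = 0.0251), 2.80 ± 0.55 for C5ar1 (adjusted p = 0.0254) and 2.67 ± 0.60 for C5ar2 (adjusted p = 0.0322, edgeR). C5ar2 missed the threshold with limma-voom (adjusted p = 0.0736) and in edgeR without KO replicate 3 (adjusted p = 0.0750), where C3ar1 and C5ar1 passed. Without KO replicate 1 or any of the WT replicates all 3 missed it, as did every gene. C5ar1 and C5ar2 lie 2588 bases apart on chromosome 7. Vsig4, which encodes a C3b and iC3b receptor of resident macrophages such as Kupffer cells, had 0 counts in all 6 libraries, which allows levels of up to 0.0552 to 0.101 CPM per kb.

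**Figure D2:**
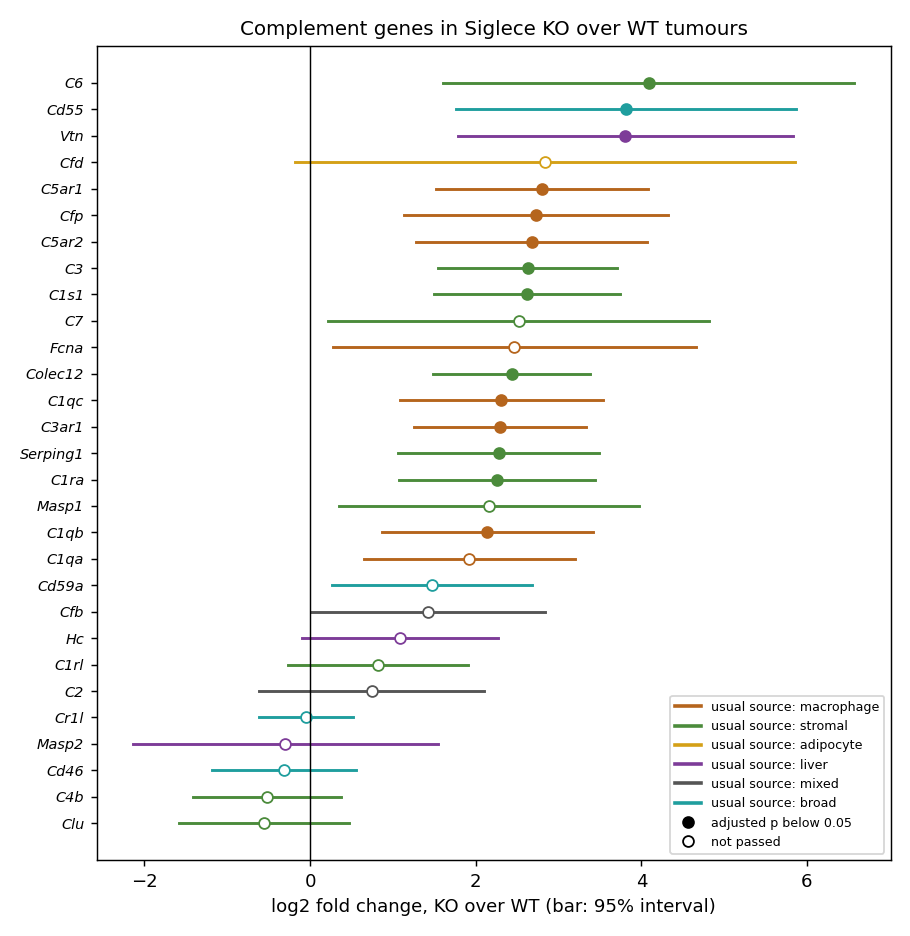
Log2 fold change of each of the 29 complement genes, KO over WT, from edgeR; bars are 95% intervals, filled points passed an adjusted p of 0.05, and colours give the usual cell source of each gene. The 14 filled points all lie to the right of 0, and Cfd has the widest interval.

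Among the soluble regulators, Serping1 and Vtn rose. Serping1 encodes C1 inhibitor, which inactivates C1r, C1s and the MASP proteases. It had 390.2, 146 and 131 CPM per kb in KO libraries, against 65.4, 36.4 and 35.8 in WT libraries, a log2 fold change of 2.28 ± 0.52 (adjusted p = 0.0336, edgeR). Every KO library was above every WT library, as for C1ra and C1s1, and KO replicate 1 was highest for Serping1, C1ra and C1s1 alike. Vtn encodes vitronectin, which binds the forming membrane attack complex. It had 2.20, 0.884 and 7.15 CPM per kb in KO, against 0.390, 0.154 and 0.176 in WT, a log2 fold change of 3.81 ± 0.87 (adjusted p = 0.0332). Vtn passed the low-count filter through KO libraries, with 29, 11 and 12 counts in WT. It missed the threshold with limma-voom (adjusted p = 0.0765) and in edgeR without KO replicate 3 (adjusted p = 0.0713). Like every gene, it also missed it without KO replicate 1 or any of the WT replicates. Clu, which encodes clusterin, another inhibitor of the terminal complex, had 4.18, 7.59 and 10.9 CPM per kb in KO, against 16.2, 6.63 and 10.4 in WT, and the groups overlapped. Cfi, the protease that inactivates C3b and C4b, was not tested, with 12, 10 and 16 counts in KO and 2, 1 and 7 counts in WT.

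The membrane regulators, which shield host cells, included 1 gene that rose, Cd55, and 3 that did not pass the test. Cr1l encodes Crry, the rodent cofactor that limits C3 and C4 deposition on host cells. It had 6.16, 5.80 and 6.14 CPM per kb in KO libraries, against 7.60, 6.04 and 5.09 in WT libraries. The KO values lay within the WT range, and the log2 fold change of -0.05 had a 95% interval of -0.62 to 0.52, the narrowest of the membrane regulators. Cd46, which in mice is best known from testis, had 0.532, 0.787 and 1.02 CPM per kb in KO, against 0.895, 1.02 and 0.998 in WT. Cd46 shares 1079 exon bases with A330023F24Rik on the opposite strand, whose counts were 80, 118 and 160 in KO and 150, 99 and 80 in WT. Reads of the 2 genes cannot be told apart there. Cd59a, which blocks the membrane pore, had 5.48, 1.89 and 6.77 CPM per kb in KO, against 1.75, 1.42 and 1.91 in WT, and did not pass the test (adjusted p = 0.106, edgeR). KO replicate 2 lay among the WT libraries for Cd59a. Cd55, which encodes decay accelerating factor, had 1.41, 0.282 and 3.38 CPM per kb in KO, against 0.135, 0.0763 and 0.147 in WT, a log2 fold change of 3.81 ± 0.89 (adjusted p = 0.0347). Its WT libraries held 24, 13 and 24 counts. Cd55 missed the threshold with limma-voom (adjusted p = 0.0984) and in edgeR without KO replicate 3 (adjusted p = 0.0779). The same held, as for every gene, without KO replicate 1 or any of the WT replicates. The ratio of C3 to Cr1l levels was 20.9, 7.78 and 23.1 in KO, against 2.43, 2.62 and 3.32 in WT, again a description chosen after the values were seen.

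Of the terminal components C6 was called, at very low counts, and Hc and C7 did not pass the test. Hc, the mouse C5 gene, had 8.17, 4.29 and 1.73 CPM per kb in KO libraries, against 2.42, 2.20 and 2.09 in WT libraries. KO replicate 3 was below all WT libraries, and the test was not passed (log2 fold change 1.08 with an interval of -0.10 to 2.26, adjusted p = 0.182, edgeR). C6 had 11, 13 and 48 counts in KO, against 2, 3 and 1 counts in WT. This corresponds to 0.105, 0.104 and 0.673 CPM per kb in KO and 0.0154, 0.0240 and 0.00837 in WT. The test was passed (log2 fold change 4.09 ± 1.07, adjusted p = 0.0483, edgeR). It was not passed with RLE size factors, without composition scaling, with limma-voom (adjusted p = 0.0997) or without KO replicate 3 (log2 fold change 2.61, adjusted p = 0.120). Like every gene, C6 also missed the threshold without KO replicate 1 or any of the WT replicates. C7 had 0.216, 0.426 and 2.27 CPM per kb in KO, against 0.0919, 0.298 and 0.111 in WT, and did not pass (adjusted p = 0.133). C6 and C7 proteins insert into the membrane after C5 is cleaved.

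Outside the 32 genes, Itgb2, Itgax, Cd93 and Ptx3 were among the complement genes that rose. Of 30 further complement genes, 13 passed the low-count filter, 5 were higher in KO and 0 were lower (edgeR). The shares of all genes tested were 11.2% called higher and 0.226% called lower. Itgb2, the beta chain of complement receptors 3 and 4, had 148, 52.4 and 155 CPM per kb in KO libraries, against 16.6, 23.4 and 18.05 in WT libraries (log2 fold change 2.61 ± 0.46). Itgax, the alpha chain of receptor 4, had 50.2, 29.6 and 63.6 CPM per kb in KO, against 12.1, 10.2 and 9.94 in WT (2.15 ± 0.35). Cd93, a membrane protein once described as a C1q receptor, had 24.9, 14.5 and 36.04 CPM per kb in KO, against 2.01, 4.68 and 4.23 in WT (2.79 ± 0.46). These 3 genes had adjusted p-values of 0.0246, and all KO libraries lay above all WT libraries. Ptx3, a soluble pentraxin that binds C1q, had 4.06, 2.11 and 1.84 CPM per kb in KO, against 0.621, 0.510 and 0.433 in WT (adjusted p = 0.0269). C1qbp, a mitochondrial protein also described as a C1q-binding protein, had 17.99, 45.8 and 20.2 CPM per kb in KO, against 78.8, 52.6 and 51.8 in WT. The KO values of C1qbp lay below all WT values, and the test was not passed with edgeR (adjusted p = 0.119), although DESeq2 called it lower. Calr, an endoplasmic reticulum chaperone that can act as a C1q receptor at the cell surface, had 213, 226 and 161 CPM per kb in KO, against 253, 198 and 205 in WT, and the groups overlapped. Cr2, the B cell receptor for C3d, was chosen after its values were seen. It had 0.1002, 0.521 and 0.0918 CPM per kb in KO, against 0.980, 0.976 and 1.10 in WT (adjusted p = 0.0967 with edgeR), and was called lower by DESeq2 and by edgeR without the low-count filter. Of 5 tested B cell markers 4 had positive log2 fold changes and 2, Cd79b and Blk, were higher in KO. Cd79b had 8.89, 2.05 and 8.19 CPM per kb in KO, against 1.45, 1.02 and 0.603 in WT. Pax5, chosen after its values were seen, alone had a negative log2 fold change, at -1.36 (adjusted p = 0.286, edgeR). It had 0.0653, 0.791 and 0.152 CPM per kb in KO, against 0.531, 1.01 and 1.07 in WT. The part of B cells in the Cr2 values was not tested.

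By usual source, 6 of the 8 tested genes of macrophages and other myeloid cells rose, as did 6 of the 11 tested stromal genes. Of all genes tested, 11.2% were called higher. The myeloid genes that rose were C1qb, C1qc, Cfp, C3ar1, C5ar1 and C5ar2, and the stromal ones were C1ra, C1s1, C3, Serping1, Colec12 and C6. C6 had 2, 3 and 1 counts in WT libraries and passed the low-count filter through KO libraries. Of the 10 remaining tested genes, which are widely expressed, made mainly by liver or fat, or of mixed source, Vtn and Cd55 rose. The sources are textbook assignments, not measurements in these tumours. The macrophage markers themselves had a summed level of 5599, 1383 and 6773 CPM per kb in KO libraries, against 929.9, 587 and 619.6 in WT libraries, and a median log2 fold change of 2.40. The fibroblast markers had a summed level of 5237, 1765 and 3735 CPM per kb in KO, against 440.0, 459 and 558 in WT, and a median log2 fold change of 3.04. Of the macrophage markers, Lyz2, which encodes a lysozyme, had 3381, 650.1 and 4121 CPM per kb in KO, against 506, 271 and 359.5 in WT.

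Set against macrophage markers, the 8 tested myeloid complement genes overlapped between KO and WT tumours. The measure was the log2 level of a gene, with 0.1 added, minus the mean of the same over the 14 macrophage markers. C1qa stood 4.34, 4.49 and 4.20 log2 units above the markers in KO libraries, against 5.36, 4.45 and 4.56 in WT libraries. C1qc stood 3.21, 3.11 and 2.94 units above them in KO, against 3.52, 3.07 and 3.12 in WT. C3ar1 stood at -0.48, -0.45 and -0.75 units in KO, against -0.60, -0.20 and -0.33 in WT. The differences of the 8 genes ran from -0.45 to 0.27 log2 units, KO minus WT, with KO SDs of 0.12 for C5ar1 to 0.76 for Fcna. Over all genes tested, by the same measure, 79.1% had every KO library below every WT library and 0.918% had every KO library above. C2, C4b, Clu, Cr1l, Cd46, Cd59a, C1rl and Hc, 8 of 28 complement genes, had KO below WT on this scale and 0 had KO above. C6 was left out of these counts because its WT levels all lay under the 0.1 added, which then sets its direction. With 1 added in place of 0.1, 13 of the 28 had KO below and 1, C3, had KO above, and 2 of the 8 myeloid genes, Fcna and C5ar2, no longer overlapped. The exact two-sided permutation test cannot give a p under 0.1 with 3 against 3 libraries, and over the 58 comparisons made, 29 genes against each of the 2 marker lists, the smallest adjusted p was 0.264.

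Set against fibroblast markers, 7 of 10 stromal complement genes overlapped between the groups and 3 did not, with C6 again left out. C3 stood at -0.02, 0.07 and 0.28 log2 units from the mean of 12 fibroblast markers in KO libraries, against 0.46, 0.49 and 0.21 in WT libraries. C1s1 stood at 0.62, 0.56 and -0.53 units in KO, against 0.58, 0.44 and 0.51 in WT. Both overlapped between the groups, as did C1ra, Serping1, Colec12, Masp1 and C7. C4b stood at -1.47, 0.85 and -1.86 units in KO, against 2.63, 2.47 and 2.42 in WT, a difference of -3.33. Clu differed by -3.29 units and C1rl by -2.03, each with all KO libraries below all WT libraries. Of 28 complement genes 12 had KO below WT on this scale, against 87.3% of all genes tested, and 0 had KO above, against 0.258%. The 12 became 15 with 1 added in place of 0.1, when 6 of the 10 stromal genes had KO below, and 7 with Pdgfra as the only marker. Glioma markers moved with C4b in part. KO replicate 2, the KO library with the highest C4b, also had the highest summed glioma marker level of the KO libraries. It was 959.8 CPM per kb, against 355 and 368 in KO replicates 1 and 3, and WT libraries had 1737, 1253 and 1250.5. Vim alone made up most of each sum, with 319, 651 and 351 CPM per kb in KO and 1106, 814 and 768 in WT. Sox2 had 9.03, 71.7 and 2.30 CPM per kb in KO, against 99.8, 111 and 110 in WT. The part of the tumour line in the C4b values was not tested.

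**Figure D3:**
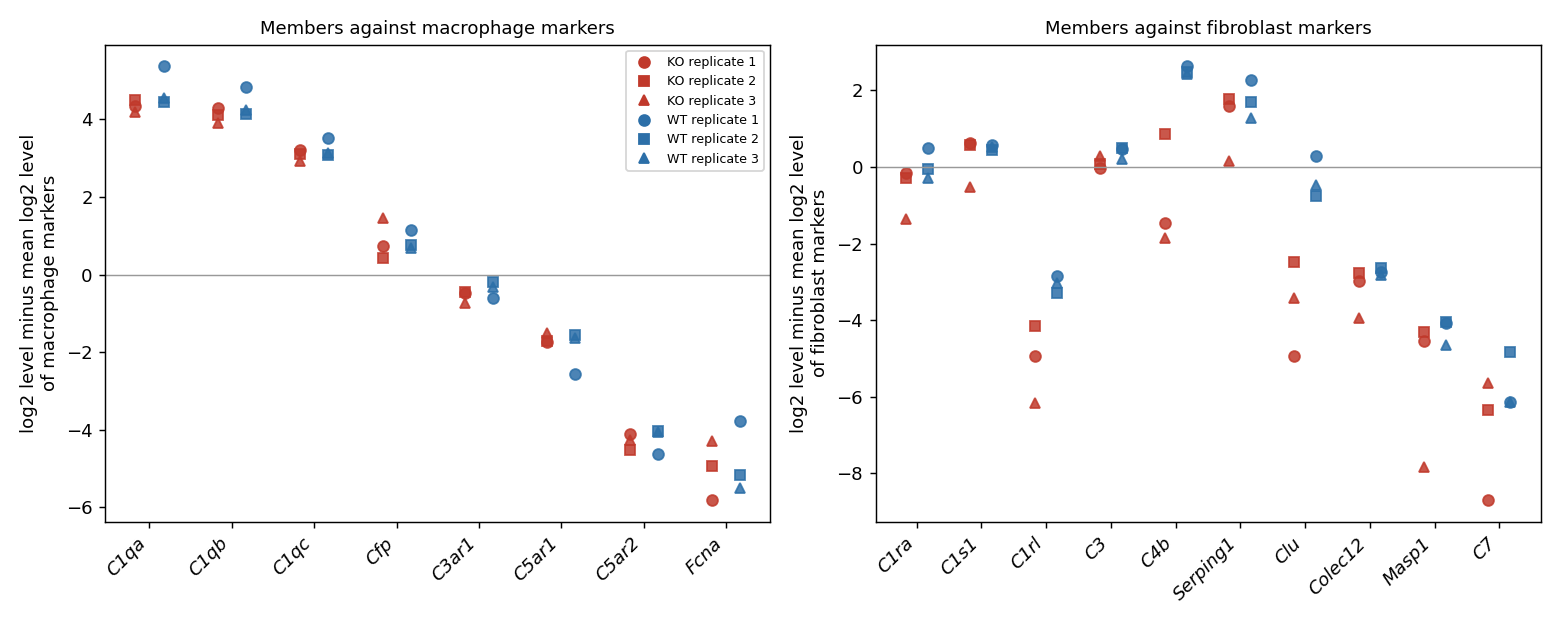
Log2 level (with 0.1 added) of 8 myeloid complement genes minus the mean log2 level of 14 macrophage markers (left), and of 10 stromal complement genes minus that of 12 fibroblast markers (right); each point is 1 library, KO in red to the left of WT in blue. KO and WT points overlap in all 8 columns on the left, whereas C4b, Clu and C1rl on the right have every KO point below every WT point.

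The KO libraries were more spread than the WT libraries: the SD of the log2 level was greater in KO for 27 of the 29 tested genes, with a median of 0.99 in KO and 0.36 in WT. KO replicate 2 was the lowest KO library for 17 of the 29 tested genes, and KO replicate 3 was the highest for 17 and KO replicate 1 for 10. The C1q chains, C3, C3ar1 and Cr1l had nearly equal levels in KO replicates 3 and 1, with log2 ratios of the first to the second from 0.00 to 0.26 in size. Cfd, at 5.24, and C7, at 2.91, had the greatest positive ratios, followed by Fcna and C6 at 1.91 each. Masp1 at -3.43, Cfb at -2.71, C2 at -2.64, Hc at -2.18 and Masp2 at -2.04 had the lowest. The median of this ratio was 0.26 over macrophage markers, -0.17 over fibroblast markers, 2.86 over adipocyte, 2.44 over neutrophil, 1.26 over endothelial and 1.20 over skeletal muscle markers.

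**Figure D4:**
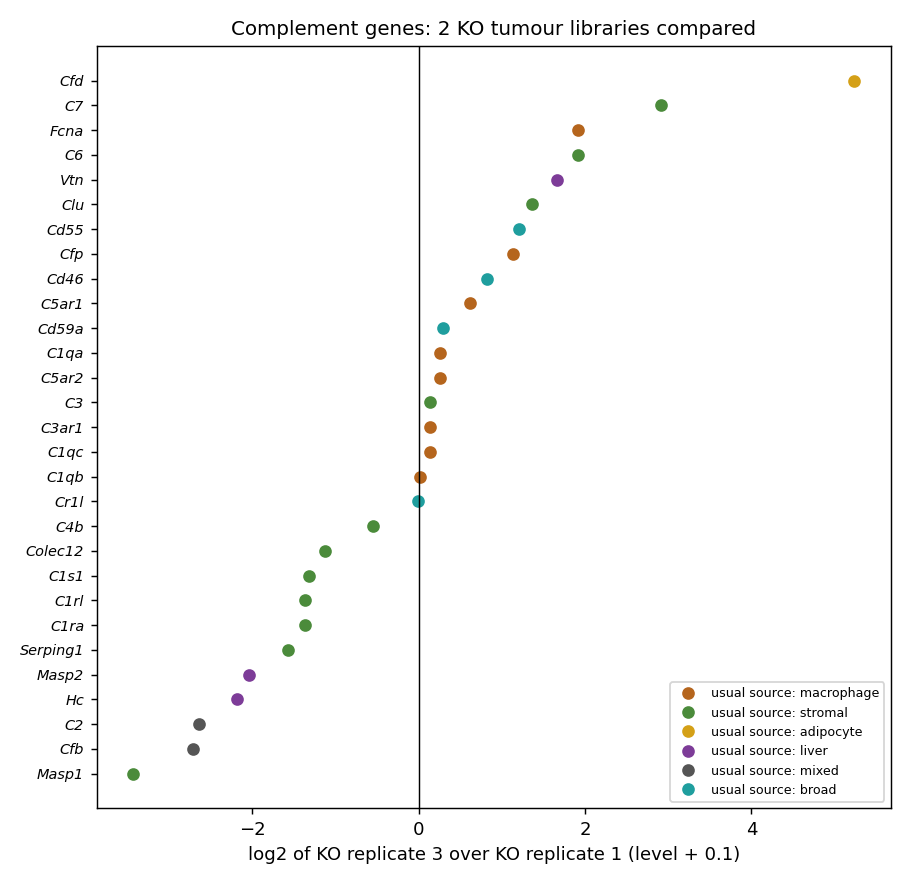
Log2 ratio of the level (with 0.1 added) in KO replicate 3 to that in KO replicate 1 for the 29 complement genes that passed the low-count filter, coloured by usual source; each point is 1 ratio of 2 libraries and has no error. Cfd lies at 5.24 and Masp1 at -3.43, with the C1q genes close to 0.

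Interferon-stimulated genes, a list of 7 chosen after the values were seen (Isg15, Ifit1, Ifit3, Irf7, Rsad2, Mx1 and Oas1a), were also low in KO replicate 3. With the WT mean at 0, their mean log2 level was 0.42, 0.33 and -1.73 in the KO libraries, all 7 were lower in KO replicate 3 than in any WT library, and 0 of the 7 passed the edgeR test. Isg15, which encodes a ubiquitin-like protein, had 204, 269 and 46.9 CPM per kb in KO libraries, against 536, 244 and 230.1 in WT libraries. Cfb and C2, which are known as interferon-inducible genes, were likewise lower in KO replicate 3 than in any WT library. Serping1 was also lowest in KO replicate 3 among the KO libraries, with 390.2, 146 and 131 CPM per kb. Unlike Cfb and C2, it was still above the WT libraries there, which had 65.4, 36.4 and 35.8. The part of interferon signalling in the values of Cfb, C2, Hc, Masp1 and Serping1 was not tested.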

How the data were processed

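The authors deposited unnormalised read counts for 55291 gene symbols in 6 libraries, beside exon positions and merged exon lengths, per the file headers; every row named a gene. The submitters' processing notes name the build mm10 and DESeq2. The sources used here name no aligner, annotation release or strand setting and do not say how multiply aligned reads were treated. For 52905 symbols the position was the same in GENCODE M21, which supplied gene identifiers and exon overlaps.

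KO was compared with WT over all genes in edgeR 4.0.16 (R 4.3.3) by its quasi-likelihood F test, which is two-sided, with genotype as the single term, TMM scaling and the default filterByExpr, with Benjamini-Hochberg adjustment over the 18621 genes that passed the filter, which held 99.9% of all counts, and a threshold of 0.05. Standard errors (SE) came from the size of the log2 fold change over the root of its F statistic, and 95% intervals used the test's degrees of freedom. An exact permutation test over libraries, two-sided, was run on levels relative to markers. The calculations were tested on simulated counts. Alternatives were RLE size factors, no composition scaling, no low-count filter, DESeq2 1.42.0, limma 3.58.1 with voom, each library left out, a pseudocount of 1 in place of 0.1, and Csf1r or Pdgfra alone as the marker.

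A count of 0 was taken to allow up to 3 counts, or 0.0820 to 0.150 CPM depending on the library; these limits cover counting error only. The genes named were all 32 complement genes, of 30 other complement genes those that passed the test and the 4 with the highest mean levels, and up to 3 genes of each marker list, with further marker genes named only where they were at or near 0. Not every gene so chosen is reported here. The genes, lists and tests were chosen with earlier results of these data known. The interferon-stimulated list, Cr2, Pax5, Adipoq, Apoa2 and the ratios between genes were chosen after their values were seen.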

Additional observations from a re-analysis of the deposited data

How the results depend on the processing

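The count of complement genes higher in KO was 14, and it was 12 with RLE size factors, 14 without composition scaling, 17 without the low-count filter, 19 with DESeq2 and 8 with limma-voom; the 8 were C1qc, C1ra, C1s1, C3, C3ar1, C5ar1, Colec12 and Serping1. Leaving out 1 library gave 0 to 17, and the count lower in KO was 0 under these settings; DESeq2 without KO replicate 2 called 19 higher and 1, C4b, lower. Of the other complement genes 5 were higher, 8 with DESeq2 and 0 to 8 with 1 library left out, and 0 were lower, 1 without the filter (Cr2), 2 with DESeq2 (C1qbp and Cr2) and 0 to 2 with 1 library left out. Over all genes tested the share called higher was 11.2%, and it was 9.66% with RLE size factors, 9.19% without composition scaling, 8.71% without the filter, 16.2% with DESeq2 and 5.31% for limma-voom. With 1 library left out the log2 fold change changed sign for C2 (-0.044 to 1.16, negative without KO replicate 1), Masp2 (-0.79 to 0.13, positive without KO replicate 3 or WT replicate 2) and Cr1l (-0.20 to 0.099, positive without WT replicate 1), and the C3ar1 difference relative to fibroblast markers was 0.081 with Pdgfra as the only marker; none of these had passed a test, and the cause was not tested. Without composition scaling the median of all genes moved by -0.13 log2 units, and that of the tested complement genes was 2.14. Of 64 values relative to markers, 10 moved by more than their spread with 1 added in place of 0.1, and 16 with a single marker gene. No paired analysis was possible because the labels give the groups no shared replicate numbers. Cfi, Fcnb and Vsig4 were limited by depth.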
